A study of Mus musculus with 32 samples.

Results

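Kidney expression of 40 genes that encode enzymes of amino acid breakdown and closely linked pathways was compared between Col4a3-null and wild-type mice. The genes were chosen by name for their role, with earlier results of these data known. All 40 of 40 were among the 22180 genes measured. Whole kidney was profiled in male mice of strain 129 that were Col4a3-/- (KO) or Col4a3+/+ littermates (WT), with 8 mice in each of 4 groups: KO at 7 weeks, WT at 7 weeks, KO at 4 weeks and WT at 4 weeks. Each of the 32 mice gave 1 Affymetrix Mouse Gene 2.0 ST array, and the values are gene-level log2 signals deposited after robust multi-array averaging (RMA). No further allele, driver or treatment is named in the labels. A gene was read from a feature that names only that gene, taking the feature with the highest mean where there were several. Among the 40, this applied to Sardh alone, and Bhmt was the 1 gene among the dimmest 25% of all genes. Signals of different genes come from different probes and are not compared with each other.

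The proximal tubule reabsorbs filtered amino acids and holds mitochondria and peroxisomes rich in the enzymes that take them apart. These enzymes feed carbon into the citric acid cycle, supply one-carbon units and NAD precursors, and make products that the kidney exports, among them arginine and the creatine precursor guanidinoacetate. Col4a3 encodes a type IV collagen chain that the glomerular basement membrane is built from, and mice without it develop progressive kidney disease of the Alport type.

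Col4a3, the targeted gene, ranged from 6.97 to 7.87 in KO mice with a median of 7.15, and from 8.74 to 9.06 in WT mice with a median of 8.93 at 7 weeks. At 4 weeks it ranged from 7.60 to 8.42 with a median of 7.86 in KO mice, and from 8.46 to 9.33 with a median of 8.91 in WT mice. The genotypes did not overlap at either age, so the groups were ordered as labelled. At 4 weeks the highest KO value, 8.42, lay close under the lowest WT value, 8.46, so this does not verify each single array. The kidney segment marker Umod, the uromodulin of the thick ascending limb, had group means between 13.13 and 13.25. The median correlation of an array with the others of its group was 0.981 to 0.993, and principal components 1 and 2 carried 37.3% and 19.8% of the variance. Mouse 4 and mouse 5 of the KO group at 4 weeks had the lowest array weights, 0.337 and 0.388, and the calls that change without them are given beside the results. The number of arrays limits the precision, and the labels do not say how mice were grouped for extraction or hybridisation. At 7 weeks the mean array median was 0.114 higher in KO than in WT mice.

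At 7 weeks, 36 of the 40 genes were lower in KO than in WT kidney, 2 were higher and 2 did not pass the test. The background was 16.7% lower and 15.6% higher among all genes, at a limma p adjusted over all 22180 genes below 0.05. The 40 genes were chosen with earlier results of these data known, so their excess over this background is not independent support. The median difference, KO minus WT, was -0.71 on the log2 scale over the 40 genes and -0.06 over all genes. Of the 36, 26 were lower by at least 1.5-fold, which held for 2.92% of all genes. In 24 genes all 8 KO mice had lower signals than any WT mouse, against 5.42% of all genes. Arg2, the mitochondrial arginase, was the 1 gene in which every KO mouse lay above every WT mouse, against 7.62% of all genes, and in the other 15 the groups overlapped. In whole tissue, fewer cells of a type and less RNA per cell cannot be told apart. With each array centred on its median, 37 of the 40 were lower and 1 was higher, and the same scaling put 37.5% of all genes lower and 11.6% higher.

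**Figure D1:**
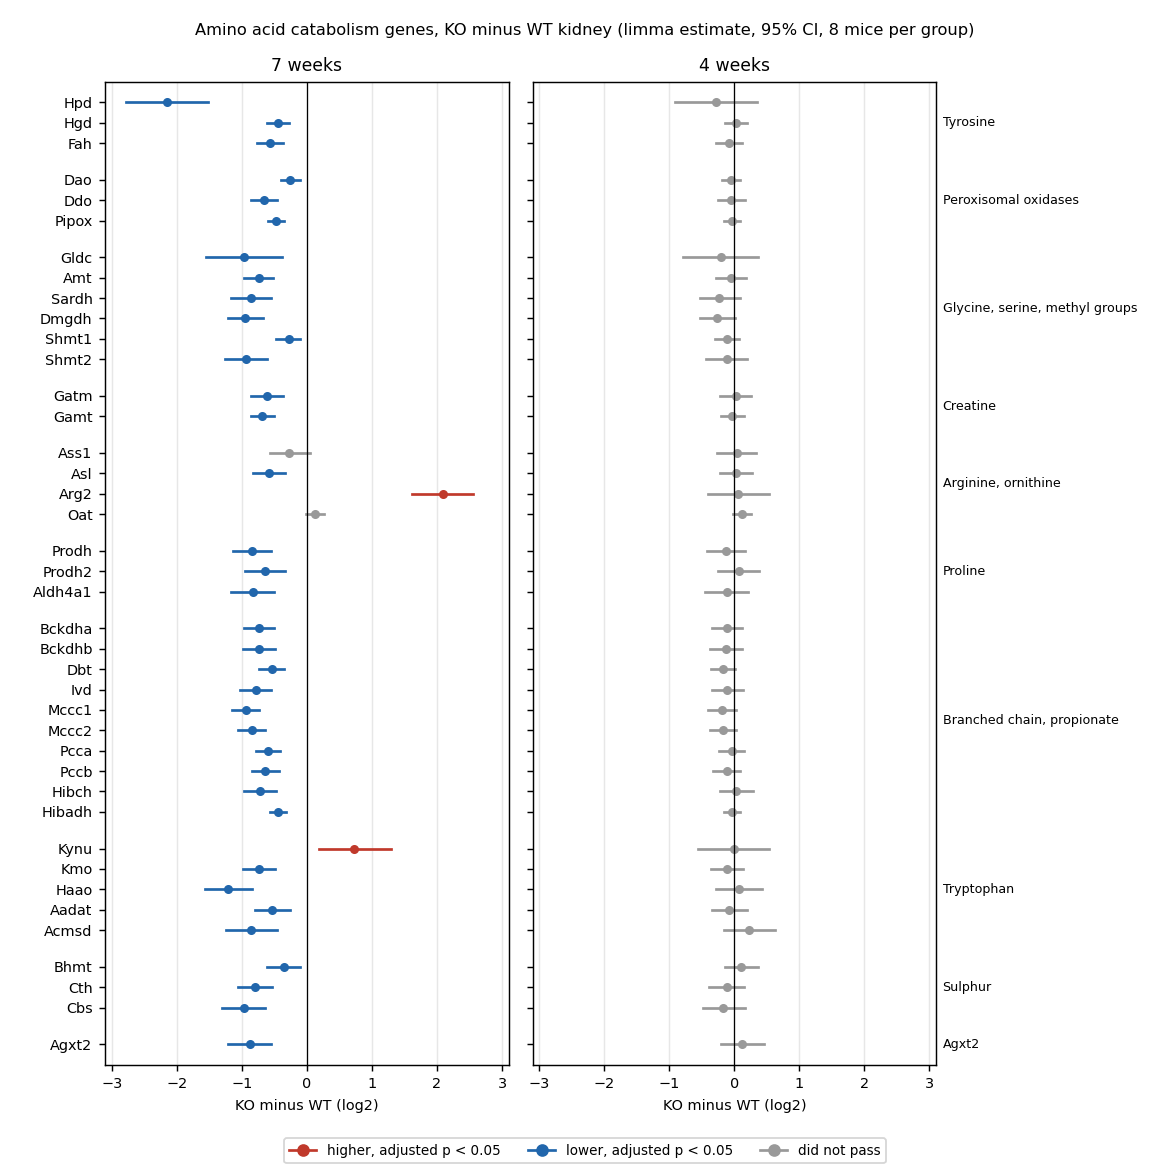
The difference KO minus WT (log2, x axis) is shown for each of the 40 genes, grouped by pathway, at 7 weeks on the left and 4 weeks on the right. Points are limma estimates and bars their 95% confidence intervals with 8 mice per group. At 7 weeks 36 genes lie to the left of 0 and pass the test, while Arg2 (2.09) and Kynu (0.73) lie to the right. At 4 weeks no gene passed.

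The tyrosine pathway genes were all lower in KO kidney at 7 weeks. Hpd, the dioxygenase that turns hydroxyphenylpyruvate into homogentisate, had the lowest difference of the 40 genes. Its log2 signal ranged from 7.42 to 10.58 with a median of 8.82 in KO mice, and from 10.74 to 11.39 with a median of 10.98 in WT mice. No KO mouse reached the lowest WT mouse, and the KO values spread far more widely than the WT values. The estimate was -2.15 ± 0.31 (SE, n = 8 per group, adjusted p = 1.36e-06), a 4.44-fold lower signal. In the main fit, SEs, intervals and p-values rest on 1 spread per gene shared by all 4 groups. For Hpd the SD at 7 weeks was 1.18 in KO and 0.19 in WT mice, so this SE is not the spread of those groups. Hgd, which opens the homogentisate ring, ranged from 11.45 to 12.24 in KO mice and from 12.30 to 12.42 in WT mice (-0.44, adjusted p = 9.3e-05). Fah, which splits fumarylacetoacetate in the closing step, ranged from 10.72 to 11.42 in KO mice and from 11.55 to 11.72 in WT mice (-0.57, adjusted p = 2.14e-05). The genotypes did not overlap for either gene.

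All 3 peroxisomal oxidases were lower. Ddo, which oxidises acidic D-amino acids such as D-aspartate, ranged from 6.89 to 7.86 with a median of 7.33 in KO mice, and from 7.91 to 8.01 with a median of 7.97 in WT mice. All KO mice lay below all WT mice (-0.66 ± 0.10, adjusted p = 2.93e-06). Pipox, the oxidase of pipecolate and sarcosine, ranged from 10.70 to 11.17 in KO mice and from 11.35 to 11.52 in WT mice, again without overlap (-0.48, adjusted p = 1.43e-07). Dao, which oxidises neutral D-amino acids, was lower by 1.19-fold (-0.26, adjusted p = 0.00415). Its KO range of 11.81 to 12.18 crossed the WT range of 12.16 to 12.36 in 1 mouse, and after quantile normalization the difference was -0.10 (adjusted p = 0.208).

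All 6 genes of glycine, serine and methyl-group oxidation were lower in KO kidney at 7 weeks, 5 of them by at least 1.5-fold. Shmt2, the mitochondrial serine hydroxymethyltransferase, ranged from 9.95 to 11.43 with a median of 10.92 in KO mice, and from 11.59 to 11.94 with a median of 11.75 in WT mice. The genotypes were apart, and the difference was -0.94 ± 0.16 (adjusted p = 1.51e-05). Shmt1, its cytosolic counterpart, was lower by 1.22-fold (-0.28, adjusted p = 0.014), with 6 of 8 KO mice below every WT mouse. Dmgdh and Sardh take the methyl groups off dimethylglycine and sarcosine in mitochondria. Dmgdh ranged from 8.19 to 9.68 in KO mice and from 9.97 to 10.19 in WT mice (-0.95, adjusted p = 6.24e-07). Sardh ranged from 9.02 to 10.22 in KO mice and from 10.34 to 10.58 in WT mice (-0.86, adjusted p = 2.95e-05). Neither gene overlapped between genotypes, and the second, dimmer Sardh feature averaged 5.00 in KO mice and 5.48 in WT mice. In the glycine cleavage system, Amt, the aminomethyltransferase, was 1.67-fold lower without overlap (-0.74, adjusted p = 2.8e-06). Gldc, the decarboxylase of the same complex, was 1.95-fold lower but varied more, from 8.09 to 9.72 in KO mice and from 9.19 to 10.21 in WT mice, with 5 of 8 KO mice below every WT mouse (-0.97 ± 0.28, adjusted p = 0.00818).

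Both enzymes of creatine synthesis were lower. Gatm makes guanidinoacetate from arginine and glycine, a step for which the kidney is a main site, and Gamt methylates it to creatine. Gatm ranged from 11.18 to 12.47 with a median of 11.76 in KO mice, and from 12.23 to 12.59 with a median of 12.53 in WT mice. There 5 of 8 KO mice lay below all WT mice (-0.61 ± 0.12, adjusted p = 0.000105). Gamt ranged from 7.99 to 8.62 in KO mice and from 8.77 to 9.11 in WT mice, with no overlap (-0.69 ± 0.09, adjusted p = 1.15e-07).

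The 4 arginine and ornithine genes did not move together. Arg2, which splits arginine into ornithine and urea in mitochondria, ranged from 9.38 to 11.14 with a median of 10.29 in KO mice, and from 7.33 to 8.68 with a median of 8.17 in WT mice. Every KO mouse was above every WT mouse, and the estimate was 2.09 ± 0.23 (adjusted p = 8.95e-09), a 4.25-fold higher signal. Asl, the lyase that releases arginine from argininosuccinate, was lower (-0.58 ± 0.12, adjusted p = 0.000287), with 6 of 8 KO mice below every WT mouse. Ass1, which makes argininosuccinate from citrulline, ranged from 6.01 to 7.06 in KO mice and from 6.33 to 7.32 in WT mice, and its difference of -0.27 did not pass (adjusted p = 0.181, 95% interval -0.57 to 0.04). With each array centred on its median, Ass1 passed at -0.38 (adjusted p = 0.0362). Oat, the ornithine aminotransferase, also did not pass, at 0.13 (adjusted p = 0.153, 95% interval -0.01 to 0.27), and it passed at 0.24 after quantile normalization (adjusted p = 0.00793) and at 0.14 with array weights (adjusted p = 0.046).

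The 3 proline and hydroxyproline genes were lower by 1.56-fold to 1.79-fold. Prodh starts proline oxidation in mitochondria and Prodh2 that of hydroxyproline, the imino acid released by collagen breakdown, and Aldh4a1 carries both products on towards glutamate and its hydroxylated form. Prodh had a lowest signal of 8.73 and a median of 9.39 in KO mice, and ranged from 9.93 to 10.39 with a median of 10.22 in WT mice (-0.84 ± 0.14, adjusted p = 1.62e-05). Aldh4a1 ranged from 8.23 to 9.75 in KO mice and from 9.72 to 10.02 in WT mice (-0.83, adjusted p = 0.000108). Prodh2 ranged from 8.03 to 9.08 in KO mice and from 9.08 to 9.40 in WT mice (-0.64, adjusted p = 0.00122). In each of the 3 genes, 7 of 8 KO mice lay below every WT mouse.

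All 10 branched-chain and propionate genes were lower, 8 of them by at least 1.5-fold, with a median difference of -0.73. The subunits of the branched-chain ketoacid dehydrogenase, the committed step for leucine, isoleucine and valine, were also lower: Bckdha by 1.66-fold, Bckdhb by 1.66-fold and Dbt by 1.45-fold. For leucine, Ivd oxidises isovaleryl-CoA, and Mccc1 and Mccc2 form the methylcrotonyl-CoA carboxylase. Mccc1 ranged from 7.73 to 8.55 with a median of 8.17 in KO mice, and from 8.99 to 9.24 with a median of 9.04 in WT mice. The 2 groups were separated by a wide gap, and Mccc1 had the lowest adjusted p among the lower genes (-0.94 ± 0.10, adjusted p = 1.05e-08). Mccc2, its partner subunit, ranged from 8.64 to 9.51 in KO mice and from 9.87 to 10.09 in WT mice (-0.85, adjusted p = 5.52e-08). Ivd was 1.73-fold lower, also without overlap (-0.79, adjusted p = 1.52e-06). For valine, Hibch hydrolyses hydroxyisobutyryl-CoA and Hibadh oxidises the free acid. Hibch ranged from 7.52 to 8.40 in KO mice and from 8.59 to 8.84 in WT mice (-0.72, adjusted p = 1.7e-05). Hibadh ranged from 11.78 to 12.41 in KO mice and from 12.51 to 12.65 in WT mice (-0.44, adjusted p = 4.96e-07). Pcca and Pccb, the subunits of propionyl-CoA carboxylase, were 1.51-fold and 1.56-fold lower, both with all KO mice below all WT mice. Bckdhb was the 1 gene of the 10 in which the genotypes overlapped, by 1 KO mouse.

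Of the 5 tryptophan genes, 4 were lower and 1 was higher. Haao, which opens the hydroxyanthranilate ring on the way to NAD, ranged from 8.06 to 10.06 with a median of 9.29 in KO mice, and from 10.21 to 10.56 with a median of 10.47 in WT mice. The genotypes did not overlap, and the difference was -1.21 ± 0.18 (adjusted p = 1.7e-06), a 2.31-fold lower signal. Kmo, the kynurenine hydroxylase, was 1.66-fold lower without overlap (-0.73, adjusted p = 1.16e-05). Acmsd, which diverts an intermediate away from NAD, ranged from 8.73 to 10.31 in KO mice and from 9.98 to 10.78 in WT mice, and 5 of 8 KO mice lay below all WT mice (-0.86, adjusted p = 0.000662). Aadat, an aminotransferase for kynurenine and aminoadipate, was 1.45-fold lower (-0.53, adjusted p = 0.00204). Kynu, the kynureninase that makes hydroxyanthranilate, was higher: it ranged from 6.83 to 7.51 with a median of 7.02 in KO mice, and from 5.71 to 6.89 with a median of 6.32 in WT mice. There 7 of 8 KO mice lay above every WT mouse, and the estimate was 0.73 ± 0.27 (adjusted p = 0.0368). This call was lost with each array centred on its median (0.62, adjusted p = 0.058) and after quantile normalization (0.61, adjusted p = 0.0881). It was also lost when any 1 of WT mice 2, 5, 7 and 8 or KO mice 4, 6, 7 and 8 was left out, with differences from 0.64 to 0.73 and adjusted p from 0.0521 to 0.0806.

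Among the sulphur amino acid genes, Cbs and Cth carry homocysteine through cystathionine to cysteine. Cbs ranged from 9.23 to 10.76 with a median of 10.09 in KO mice, and from 10.80 to 11.18 with a median of 11.00 in WT mice (-0.97 ± 0.16, adjusted p = 1.22e-05). Cth ranged from 9.26 to 10.36 with a median of 9.91 in KO mice, and from 10.60 to 10.74 with a median of 10.70 in WT mice (-0.80, adjusted p = 1.12e-05). Both were apart between genotypes. Bhmt, which remethylates homocysteine with betaine, was dim and overlapped, at 3.66 to 4.58 in KO mice and 4.11 to 5.03 in WT mice (-0.35, adjusted p = 0.0293). Its call was lost without WT mouse 2, 4 or 6 or KO mouse 1, 6 or 8 (-0.34 to -0.27, adjusted p 0.0509 to 0.089), after quantile normalization (-0.29, adjusted p = 0.0672) and with the 7-week mice fitted alone (-0.35, adjusted p = 0.0563). On chromosome 13, both Dmgdh and Bhmt lie beside Bhmt2, and Bhmt2, a close relative of Bhmt named here after its value was seen, was lower by 1.95-fold (-0.96, adjusted p = 5.44e-06). Agxt2, a mitochondrial aminotransferase that clears asymmetric dimethylarginine and aminoisobutyrate, ranged from 8.04 to 9.85 with a median of 9.46 in KO mice, and from 9.97 to 10.29 with a median of 10.14 in WT mice. No KO mouse reached the WT range (-0.88 ± 0.16, adjusted p = 4.03e-05).

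**Figure D2:**
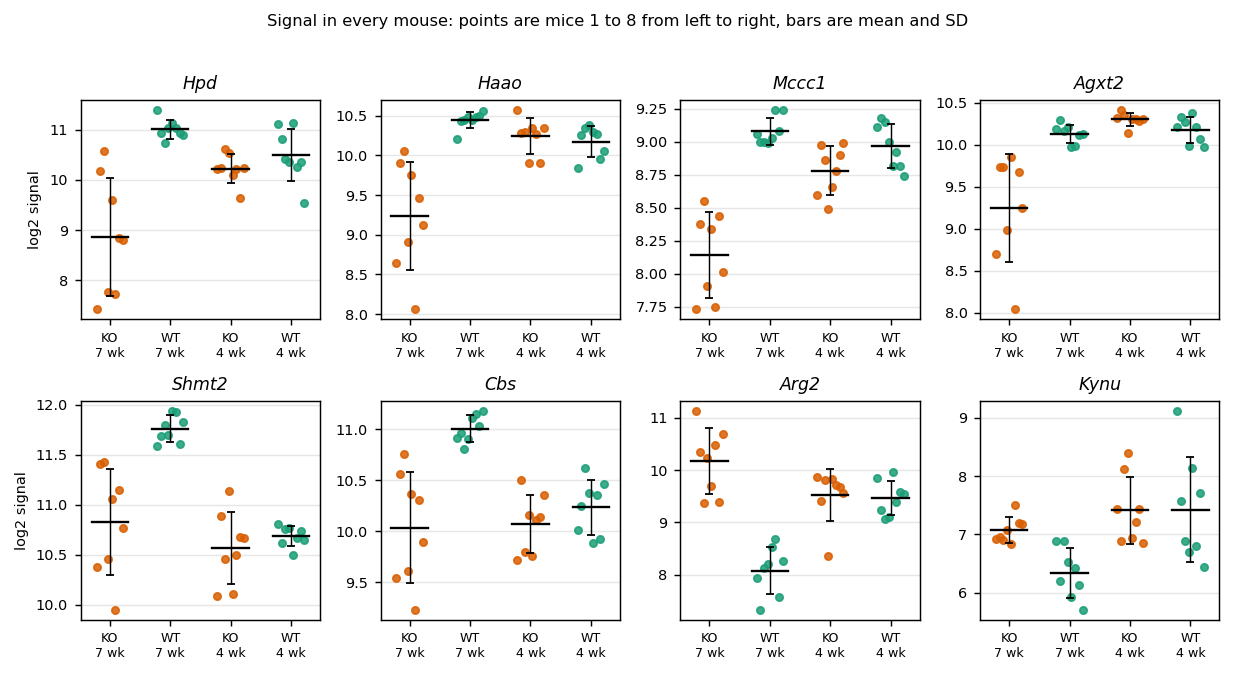
Log2 signal (y axis) of 8 genes is shown in every mouse, by group along the x axis. Each point is 1 mouse, and bars give the mean and SD of 8 mice. At 7 weeks all KO points of Hpd, Haao, Mccc1, Agxt2, Shmt2 and Cbs lie below all WT points and all KO points of Arg2 lie above them, while at 4 weeks the genotypes overlap in each of the 8 genes.

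Promoter sequences are shown for the genes lower at 7 weeks whose window held at least 2 different motifs of those searched, so that the letters can be read beside the values above. RefSeq windows of GRCm38.p6, from 250 bases before to 50 bases after the annotated start, matched 35 of the 40 genes, and for genes with several windows the first by coordinate was used. Both strands were searched for the partial nuclear receptor site AGGTCA, the HNF4 core CAAAGT, the partial HNF1 site GTTAAT and the ATF4 element TGATGNAAT. AGGTCA was in 13 of the 35 windows (37.1%), against 16.2% of all 27025 windows. CAAAGT was in 9 (25.7%, against 14.2% of all windows), GTTAAT in 2 (5.71%, against 7.25%) and TGATGNAAT in 0 (against 0.981%). A match is a run of letters and not a measured binding site. Capitals mark matches on either strand in the windows below, each written 5′ to 3′ on the gene's strand. In Amt the CAAAGT and AGGTCA matches share 2 bases, at chr9:108296655-108296954 on the plus strand. Prodh2 lies at chr7:30493408-30493707 (plus strand), Haao at chr17:83846741-83847040 (minus strand) and Agxt2 at chr15:10358283-10358582 (plus strand).
Amt: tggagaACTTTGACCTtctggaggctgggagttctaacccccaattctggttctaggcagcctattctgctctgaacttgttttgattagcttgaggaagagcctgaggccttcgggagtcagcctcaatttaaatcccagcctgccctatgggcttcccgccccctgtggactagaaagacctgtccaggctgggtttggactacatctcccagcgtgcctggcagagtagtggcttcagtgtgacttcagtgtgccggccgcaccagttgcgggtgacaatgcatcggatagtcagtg
Prodh2: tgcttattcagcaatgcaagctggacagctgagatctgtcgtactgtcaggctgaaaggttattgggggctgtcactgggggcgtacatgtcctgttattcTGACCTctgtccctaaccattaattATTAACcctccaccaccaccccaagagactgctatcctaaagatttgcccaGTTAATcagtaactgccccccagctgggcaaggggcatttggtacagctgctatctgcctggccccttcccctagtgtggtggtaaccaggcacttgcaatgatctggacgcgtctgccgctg
Haao: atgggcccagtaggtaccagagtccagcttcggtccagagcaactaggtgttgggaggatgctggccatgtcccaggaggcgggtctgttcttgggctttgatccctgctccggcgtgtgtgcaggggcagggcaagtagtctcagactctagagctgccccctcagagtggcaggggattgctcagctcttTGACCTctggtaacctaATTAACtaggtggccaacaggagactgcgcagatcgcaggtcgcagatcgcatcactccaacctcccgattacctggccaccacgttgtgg
Agxt2: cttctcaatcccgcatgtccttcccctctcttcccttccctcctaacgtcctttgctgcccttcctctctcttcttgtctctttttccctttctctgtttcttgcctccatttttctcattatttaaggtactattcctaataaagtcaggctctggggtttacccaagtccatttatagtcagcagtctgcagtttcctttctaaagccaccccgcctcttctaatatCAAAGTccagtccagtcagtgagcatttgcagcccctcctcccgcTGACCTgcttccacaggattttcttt

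At 4 weeks none of the 40 genes passed between KO and WT kidney, against 0.0406% of all genes. The limma test also left 0 of the 40 at an unadjusted p below 0.05, against 9.22% of all genes, and no alternative setting gave a call. That test shares 1 spread per gene across all 4 groups, including the 7-week KO mice. Their median SD was 0.369 over the 40 genes but 0.165 over all genes. At 4 weeks the 40 genes had median SDs of 0.207 in KO and 0.172 in WT mice. The 40 genes were thus tested less sensitively at 4 weeks than their own spread would allow, and the 2 shares are not alike. Differences ran from -0.28 for Hpd to 0.23 for Acmsd, with a median of -0.07 over the 40 genes and -0.01 over all genes. Hpd ranged from 9.64 to 10.61 with a median of 10.23 in KO mice, and from 9.54 to 11.14 with a median of 10.39 in WT mice, so the groups lay over each other. Arg2 ranged from 8.36 to 9.87 with a median of 9.69 in KO mice, and from 9.07 to 9.96 with a median of 9.46 in WT mice (0.06 ± 0.23, adjusted p = 0.958). The lowest Arg2 value of the KO group was mouse 4, and without it the difference was 0.23 (adjusted p = 0.675). Haao ranged from 9.91 to 10.57 in KO mice and from 9.84 to 10.38 in WT mice (0.07, adjusted p = 0.937). Mccc1 ranged from 8.49 to 8.99 in KO mice and from 8.74 to 9.18 in WT mice (-0.19, adjusted p = 0.602). Cbs, with medians of 10.13 in KO and 10.30 in WT mice, and Agxt2, with medians of 10.30 in KO and 10.21 in WT mice, also overlapped between the genotypes. The genotypes overlapped in all 40 genes, where 0.0225% of all genes had every KO mouse under the WT range and 0.0271% had every KO mouse over it. The 95% interval of the difference was -0.91 to 0.35 for Hpd, so differences within such intervals are not shown to be absent. Of the injury markers, Lcn2 (NGAL) passed as higher at this age (1.27, adjusted p = 0.0342) and Havcr1 (KIM-1) stood at 1.16 (adjusted p = 0.0556). The Lcn2 call was lost without both KO mice of lowest array weight (1.24, adjusted p = 0.0693), with the 4-week mice fitted alone (1.27, adjusted p = 0.26), with the replicate number as a block (1.27, adjusted p = 0.0658) and without any 1 of KO mice 1, 3 and 4 or WT mice 1, 2, 4, 6 and 7 (adjusted p up to 0.11). At 4 weeks 0 of 10 proximal tubule and 0 of 5 macrophage markers passed. An unadjusted limma p below 0.05, from the same shared spread, was found in 3 of 5 macrophage, 4 of 5 fibroblast and 4 of 7 injury markers. It was found in 0 of 10 proximal tubule, 0 of 4 T cell and 0 of 3 podocyte markers, against 9.22% of all genes.

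The KO effect itself differed between ages for most of the genes. The difference of the KO effect, 7 weeks minus 4 weeks, was below 0 and passed in 31 of 40 genes and was above 0 and passed in 1, against 7.24% and 9.8% of all genes. Its median was -0.63 over the 40 genes and -0.04 over all genes. All 10 branched-chain and propionate genes, all 3 tyrosine genes and all 3 proline genes were among the 31, and Arg2 was the 1 above 0 (2.03 ± 0.32, adjusted p = 4.07e-05). Dao, Gldc, Shmt1, Ass1, Oat, Kynu, Aadat and Bhmt did not pass. With each array centred on its median, Dao (-0.30, adjusted p = 0.034), Bhmt (-0.55, adjusted p = 0.0272) and Aadat (-0.55, adjusted p = 0.0364) passed. Aadat also passed with array weights (-0.54, adjusted p = 0.0141), without mouse 4 of the KO group at 4 weeks (-0.58, adjusted p = 0.00869) and without mouse 2 of the KO group at 7 weeks (-0.52, adjusted p = 0.0492), and Bhmt without any 1 of 3 mice (adjusted p 0.0351 to 0.0425). Dbt did not pass after quantile normalization (-0.27, adjusted p = 0.138). Sardh lost its call when any 1 of 13 mice was left out and Dbt when any 1 of 23 was, and without mouse 6 of the KO group at 7 weeks they stood at -0.55 (adjusted p = 0.0719) and -0.31 (adjusted p = 0.0938). Aldh4a1 lost it without mouse 1 of the KO group at 7 weeks (-0.66, adjusted p = 0.0503). Without both 4-week KO mice of lowest array weight, a setting chosen after seeing the data, 32 genes passed below 0.

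The changes with age were also read in each genotype. A change that did not pass is not shown to be absent, so the groupings below describe calls and not which genotype moved. These age comparisons share their mice with the genotype comparisons above. At 7 weeks against 4 weeks, 22 of the 40 genes were lower in KO kidney and 1 was higher, against 21.3% and 21.4% of all genes. In WT kidney 14 were higher and 4 lower at the later age, against 15.4% and 14.1% of all genes. The median age difference was -0.33 in KO and 0.21 in WT kidney over the 40 genes, and -0.06 in KO and -0.01 in WT kidney over all genes. The 36 genes lower in KO at 7 weeks were chosen on these same mice. That choice by itself favours lower values with age in KO kidney or higher values with age in WT kidney. For the counts of joint calls here and in the next paragraph, the matching shares over all genes were not taken. Of the 36 genes, 17 were lower with age in KO kidney while the WT change did not pass. Hpd, Haao, Acmsd, Agxt2, Hibch, Cth, Mccc1, Mccc2, Kmo and Gatm were among them. In WT kidney Cth passed as lower with age after quantile normalization (-0.37, adjusted p = 0.0272), with array weights (-0.34, adjusted p = 0.0188), without the dimmest 25% of genes (-0.32, adjusted p = 0.0463) and with the WT mice fitted alone (-0.32, adjusted p = 0.000686). With the WT mice fitted alone, Hpd (0.51, adjusted p = 0.0344) and Haao (0.27, adjusted p = 0.0138) passed as higher with age. Acmsd had a median of 9.43 at 7 weeks and 10.98 at 4 weeks in KO mice, and 10.28 at 7 weeks and 10.65 at 4 weeks in WT mice. The age difference of Acmsd was -1.32 in KO kidney (adjusted p = 1.4e-06) and -0.23 in WT kidney (adjusted p = 0.427). Hpd differed by -1.36 with age in KO kidney (adjusted p = 0.00058) and by 0.51 in WT kidney (adjusted p = 0.24). Haao was lower with age in KO kidney (adjusted p = 2.3e-05) and differed by 0.27 in WT kidney (adjusted p = 0.273). Agxt2 showed -1.05 in KO kidney (adjusted p = 2.14e-06) and -0.05 in WT kidney (adjusted p = 0.867), and the valine gene Hibch -0.97 in KO kidney (adjusted p = 1.07e-07) and -0.22 in WT kidney (adjusted p = 0.192).

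A further 11 of the 36 were higher with age in WT kidney while the KO change did not pass: Fah, Dao, Sardh, Shmt2, Gamt, Prodh, Aldh4a1, Bckdha, Ivd, Pccb and Cbs. Of these Gamt, at -0.21 in KO kidney (adjusted p = 0.0515), passed as lower there with several other settings, among them centring (-0.28, adjusted p = 0.01), quantile normalization (-0.30, adjusted p = 0.00709) and array weights (-0.21, adjusted p = 0.0384), as well as without both 4-week KO mice of lowest array weight (-0.23, adjusted p = 0.0453) and without any 1 of 5 mice. Shmt2 had a median of 10.92 at 7 weeks and 10.58 at 4 weeks in KO mice, and 11.75 at 7 weeks and 10.71 at 4 weeks in WT mice. Its age difference was 0.26 in KO kidney (adjusted p = 0.19) and 1.07 in WT kidney (adjusted p = 5.15e-06). Without mouse 6 of the KO group at 7 weeks the KO change of Shmt2 was 0.38 (adjusted p = 0.0291). Cbs differed by -0.04 with age in KO kidney (adjusted p = 0.878) and by 0.77 in WT kidney (adjusted p = 0.000406). For Fah the values were -0.01 in KO kidney (adjusted p = 0.934) and 0.47 in WT kidney (adjusted p = 0.00043). Pipox, Amt and Dmgdh were lower with age in KO kidney and higher in WT kidney. Of these, Dmgdh lost its KO call when any 1 of 10 mice was left out (adjusted p up to 0.147) and Amt its WT call when any 1 of 5 mice was left out (adjusted p up to 0.0621). Dmgdh also lost its KO call without both 4-week KO mice of lowest weight (-0.35, adjusted p = 0.0555) and with the KO mice fitted alone (-0.32, adjusted p = 0.128), and its WT call without any 1 of 4 mice (adjusted p up to 0.0631). After quantile normalization none of the 3 passed as higher in WT kidney (Pipox 0.14, adjusted p = 0.0614; Amt 0.28, adjusted p = 0.0845; Dmgdh 0.31, adjusted p = 0.0836). Aadat was lower with age in both genotypes, and Gldc, Shmt1, Dbt and Bhmt passed in neither. Gldc passed as higher in WT kidney when centred (0.75, adjusted p = 0.0468), without the dimmest 25% of genes (0.73, adjusted p = 0.0396), with array weights (0.68, adjusted p = 0.0274), with the WT mice fitted alone (0.73, adjusted p = 0.0112) and without any 1 of 4 mice (adjusted p 0.0271 to 0.0458). Dbt passed as lower in KO kidney when centred (-0.29, adjusted p = 0.0139), without the dimmest 25% of genes (-0.21, adjusted p = 0.0499), with array weights (-0.27, adjusted p = 0.00856), without both 4-week KO mice of lowest weight (-0.24, adjusted p = 0.0416) and without any 1 of 5 mice (adjusted p 0.0174 to 0.0451). Shmt1 passed as higher in WT kidney without WT mouse 1 of the 4-week group (0.27, adjusted p = 0.0157).

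The genes that were higher or did not pass at 7 weeks had other courses. Arg2 had a median of 10.29 at 7 weeks and 9.69 at 4 weeks in KO mice, and 8.17 at 7 weeks and 9.46 at 4 weeks in WT mice. It was higher with age in KO kidney (0.64, adjusted p = 0.0236) and lower with age in WT kidney (-1.39, adjusted p = 2.52e-05). The KO change of Arg2 did not pass without mouse 4 of the 4-week KO group (0.47, adjusted p = 0.0699), nor without mouse 1 or mouse 8 of the 7-week KO group, with adjusted p from 0.056 to 0.0711 over these 3. Ass1, which passed in neither genotype, passed as lower with age in KO kidney when centred (-0.39, adjusted p = 0.0292), after quantile normalization (-0.42, adjusted p = 0.0248), with array weights (-0.35, adjusted p = 0.0454) and without any 1 of 3 mice. Kynu differed by -0.34 with age in KO kidney (adjusted p = 0.328) and by -1.08 in WT kidney (adjusted p = 0.00249). In the 4-week WT group Kynu ranged from 6.44 to 9.12, the widest spread of any of the 40 genes in that group. Oat was lower with age in both genotypes, -0.20 in KO kidney (adjusted p = 0.0156) and -0.21 in WT kidney (adjusted p = 0.0185). Its KO call was lost after quantile normalization (-0.15, adjusted p = 0.0857), and its WT call with the WT mice fitted alone (-0.21, adjusted p = 0.0523) and without WT mouse 1 of the 4-week group (-0.15, adjusted p = 0.0546).

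**Figure D3:**
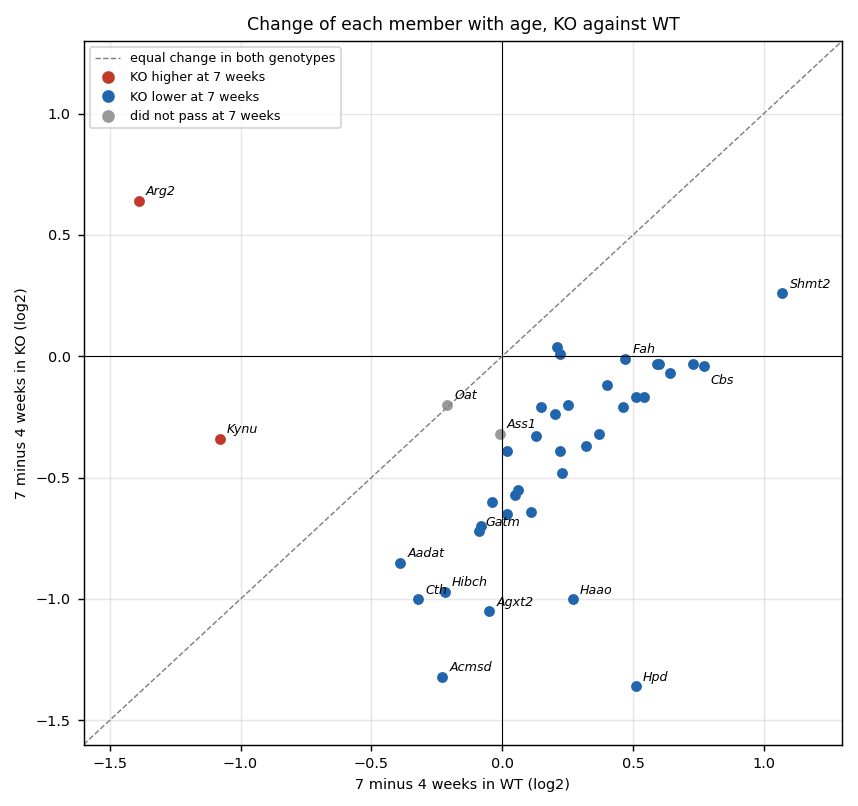
Each point is 1 of the 40 genes, with its change from 4 to 7 weeks (log2, 7 minus 4 weeks) in WT kidney on the x axis and in KO kidney on the y axis. The dashed line marks equal change in both genotypes. The 36 genes lower in KO at 7 weeks lie below the line, with Hpd at -1.36 in KO and 0.51 in WT and Shmt2 at 0.26 in KO and 1.07 in WT, while Arg2, at 0.64 in KO and -1.39 in WT, lies far above it.

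KO mice at 7 weeks differed widely from each other in these genes. At 7 weeks the median SD of the 40 genes was 0.369 among KO and 0.105 among WT mice, against 0.165 among KO and 0.159 among WT mice over all genes. At 4 weeks it was 0.207 in KO and 0.172 in WT mice, against 0.208 in KO and 0.196 in WT mice over all genes. For each KO mouse at 7 weeks, the median difference of the 36 lower genes from the WT mean was -1.28 in mouse 6, -1.08 in mouse 1, -1.01 in mouse 4, -0.87 in mouse 8, -0.50 in mouse 7, -0.44 in mouse 5, -0.39 in mouse 2 and -0.26 in mouse 3. Mouse 6 held the lowest KO value in 28 of the 36 genes and mouse 3 the highest in 24, so the same mice stood at the ends across pathways. Over all genes, principal component 1 was also highest in mouse 6 (62.7) and lowest in mouse 3 (24.5) among the 7-week KO mice. These ends were therefore not particular to the 36 genes, and the matching counts over all genes were not taken. The 36 genes were chosen as lower in KO on these same mice, so the sign of these medians is not a separate result. Arg2 was 11.14 in mouse 1, 10.70 in mouse 8, 10.48 in mouse 6, 10.34 in mouse 2, 10.24 in mouse 4, 9.70 in mouse 5, 9.40 in mouse 7 and 9.38 in mouse 3.

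Markers of other compartments moved in the same mice. All 10 of 10 proximal tubule markers (Lrp2, Cubn, Slc34a1, Slc5a2, Slc5a12, Slc22a6, Slc22a8, Slc7a13, Aqp1 and Slc13a3) were lower in KO at 7 weeks, by a median of -0.47 and a range of -1.39 to -0.37. Their mean log2 signal ranged from 10.97 to 12.15 in KO mice and from 12.24 to 12.33 in WT mice, and their summed linear signal from 23974 to 49386 in KO mice and from 51401 to 55594 in WT mice. The marker mean was 10.97 in KO mouse 6 and 12.15 in KO mouse 3, the mice at the ends of the order above. All 5 of 5 macrophage markers (Adgre1, Cd68, Csf1r, Lyz2 and Itgam) were higher, with a mean of 8.40 to 9.79 in KO mice and 6.77 to 7.16 in WT mice, and a summed linear signal of 2185 to 6254 in KO mice and 789 to 1089 in WT mice. All 7 of 7 tubular injury markers were higher, Havcr1 by 2.91 and Lcn2 by 3.81 on the log2 scale, with a mean of 9.30 to 10.44 in KO mice and 7.22 to 7.49 in WT mice. Fibroblast genes were higher in 5 of 5 and T cell genes in 4 of 4, while 0 of 3 podocyte markers passed. Endothelial genes were lower in 1 of 4, distal and collecting duct genes in 2 of 4, hepatocyte genes in 2 of 5 and adipocyte genes in 1 of 3, and thick ascending limb genes were higher in 1 of 4. The part of macrophages, injury, fibroblasts and T cells in the amino acid genes was not tested.

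**Figure D4:**
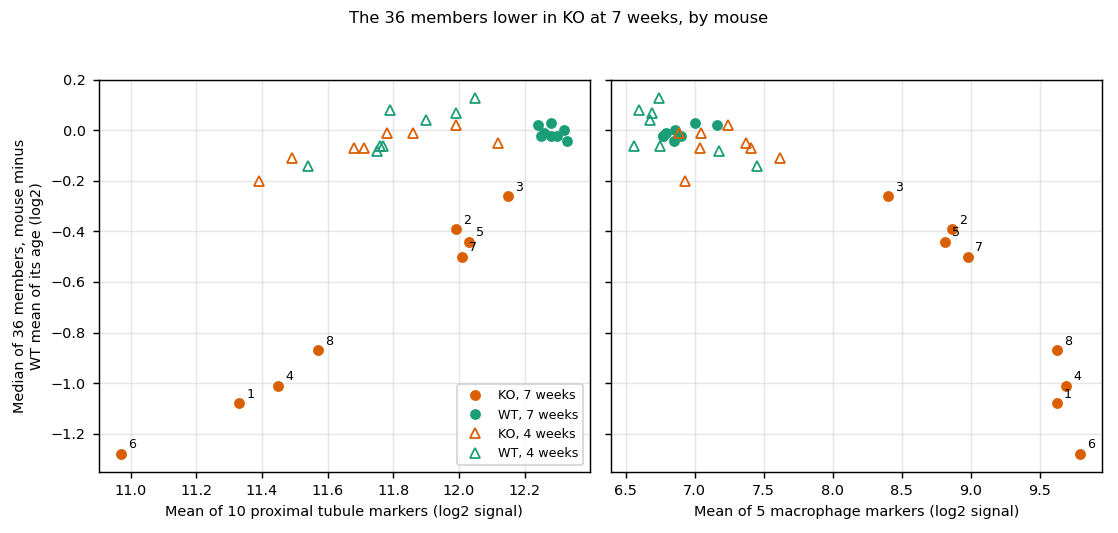
Each point is 1 mouse. The y axis is the median of the 36 genes lower in KO at 7 weeks, as the log2 difference from the WT mean of the same age, and the x axes are the mean log2 signal of 10 proximal tubule markers (left) and 5 macrophage markers (right). Filled circles are 7-week and open triangles 4-week mice, and numbers name the 7-week KO mice, which run from mouse 6 (-1.28) to mouse 3 (-0.26).

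Relative to the proximal tubule markers, the 7-week pattern split. When the mean of the 10 markers was subtracted from each array, a setting chosen after seeing the data, 10 of the 40 genes were still lower in KO kidney and 6 were higher on this relative scale, with a median of -0.11. The same subtraction put 0.825% of all genes lower and 83.8% higher, because it moves every gene up by the fall of the markers. The 10 were Hpd (-1.56, adjusted p = 9.68e-07), Haao (-0.61, adjusted p = 0.000708), Cbs (-0.38), Dmgdh (-0.35), Shmt2 (-0.34), Mccc1 (-0.34), Agxt2 (-0.29), Sardh (-0.26), Prodh (-0.25) and Aldh4a1 (-0.24). In 24 genes the difference from the marker mean did not pass, among them 9 of the 10 branched-chain and propionate genes and both creatine genes. Mccc2 (-0.25, adjusted p = 0.056) and Ivd (-0.19, adjusted p = 0.0669) missed narrowly. The marker differences ran from -1.39 to -0.37, and their mean lay further from 0 than their median of -0.47. How far the split depends on single markers was not tested. Arg2 (2.68), Kynu (1.33), Oat (0.72), Dao (0.34), Ass1 (0.33) and Shmt1 (0.31) had differences, KO minus WT, that lay above the mean difference of the markers. Of these, Dao and Shmt1 were themselves lower in KO kidney before subtraction, by less than the marker mean. A p that misses the threshold here does not show that a gene kept pace with the markers.

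**Figure D5:**
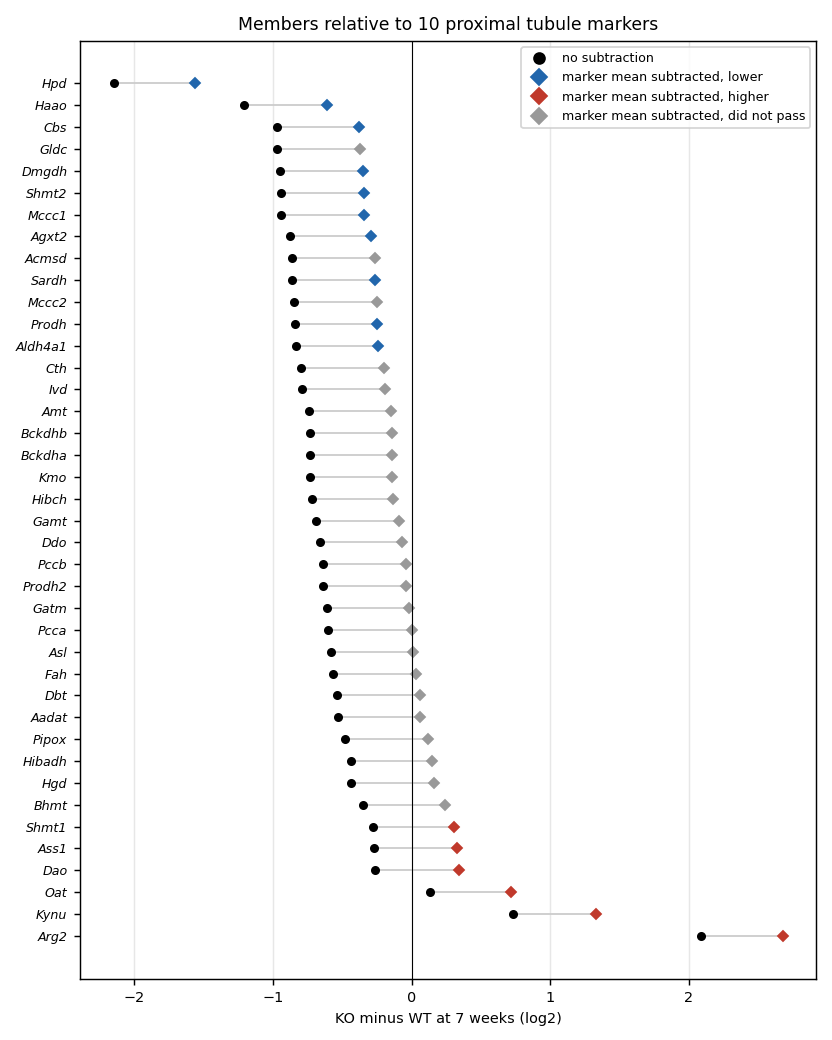
The difference KO minus WT at 7 weeks (log2, x axis) is shown for the 40 genes as measured (black circles) and after the mean of 10 proximal tubule markers was subtracted from each array (diamonds). Blue diamonds are lower and red ones higher at adjusted p below 0.05, grey ones did not pass. Hpd stays lowest, at -2.15 before and -1.56 after subtraction, and Arg2 highest, at 2.09 before and 2.68 after.

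A wider list of 64 further genes of amino acid metabolism, also chosen with earlier results of these data known, was examined in the same way. Of these, 54 were measured. At 7 weeks 36 of 54 were lower in KO kidney, 3 were higher and 15 did not pass, with a median of -0.40, against 16.7% lower, 15.6% higher and a median of -0.06 over all genes. At 4 weeks 0 of the 54 passed in limma. With the spread shared by all 4 groups, 6 of 54 had an unadjusted p below 0.05, against 9.22% of all genes. The lower genes with the smallest p again included branched-chain enzymes. Bcat2, the mitochondrial branched-chain aminotransferase, ranged from 7.26 to 7.86 in KO mice and from 8.02 to 8.49 in WT mice (-0.71 ± 0.08, adjusted p = 8.45e-09). Ppm1k, the phosphatase that activates the branched-chain dehydrogenase, was 1.57-fold lower. Acad8 of valine and Auh of leucine breakdown were 1.44-fold and 1.53-fold lower, and Mmut, the mutase that follows propionyl-CoA carboxylase, was 1.66-fold lower. Ido2, a tryptophan-opening dioxygenase, ranged from 6.17 to 8.14 in KO mice and from 8.48 to 8.93 in WT mice (-1.43 ± 0.19, adjusted p = 3.3e-07). The 3 higher genes were Asns, which makes asparagine, by 1.77-fold, Hal, the histidine ammonia-lyase, by 1.62-fold, and Psat1 of serine synthesis by 1.46-fold. Asns ranged from 7.97 to 8.71 in KO mice and from 7.33 to 8.03 in WT mice, so the highest WT mouse reached into the KO range. Cdo1 (-0.32, adjusted p = 0.147), Gpt2 (-0.19, adjusted p = 0.185) and Got1 (-0.18, adjusted p = 0.213) were among the 15 that did not pass.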

How the data were processed

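Whole kidneys of 32 mice were profiled on Affymetrix Mouse Gene 2.0 ST arrays. Tissue was kept in RNAlater, and RNA was labelled with biotin through the Ambion WT Expression Kit, per the labels' protocols. The deposited values are log2 signals per gene-level feature, made by the authors with RMA in Affymetrix Expression Console, per the submitters' processing notes. RMA subtracts background, quantile-normalizes and summarises probes, which narrows differences of dim genes. No genome build is named in the labels or notes. Scan dates and the scanner's own files were not analysed here.

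Of 41345 features, 23521 name 1 gene symbol, 1814 several and 16010 none; those naming 1 gave 22180 genes, of which 1082 had several features. Each group mean was fitted across all genes with limma 3.58.1 (lmFit and eBayes, 28 residual degrees of freedom) in R 4.3.3 with the data.table package (version 1.17.8), and p-values were Benjamini-Hochberg adjusted over all genes at 0.05. Sequences, figures and the other tables were made with Python 3.11.15, numpy 2.4.6, pandas 2.3.3 and matplotlib 3.10.9. The fit was tested on simulated data. Replicates are separate mice. Same-numbered KO and WT mice did not deviate together (correlations -0.27 to 0.232 at 4 weeks and -0.122 to 0.11 at 7 weeks), so the main fit used no pairing. Alternatives covered scaling, filters, array weights, variance models, the samples fitted and each mouse left out. The member genes, marker lists and wider list were chosen with earlier results of these data known. From the wider list, the text names the 6 lower and 3 higher genes with the smallest adjusted p and the 3 with the largest difference that did not pass. Of that list, 10 genes were not measured by a single-symbol feature.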

Additional observations from a re-analysis of the deposited data

Results flagged for a closer look

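Single mice stood apart from the rest of their group of 8 in 10 of the 160 combinations of gene and group, where the gap to the next mouse passed Dixon's 95% critical value. Chance flags about 1 in 20 groups, which is 8 of 160. Mouse 4 of the KO group at 4 weeks accounted for 6 of the 10, with the lowest value of Arg2 (8.36), Mccc2 (9.36), Aadat (11.76), Cth (10.12) and Agxt2 (10.14) and the highest of Bckdha (9.66). Its array weight was 0.337, the lowest of the 32. The other 4 were the highest Asl value of the 4-week WT group (10.42), the highest Bhmt value of the 4-week KO group (4.73), and the lowest Aldh4a1 (9.72) and Haao (10.21) values of the 7-week WT group.

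The KO effect differed between the ages, tested as an interaction in limma, in 32 genes. As the KO effect at 7 weeks minus that at 4 weeks on the log2 scale, the tyrosine genes Hpd, Hgd and Fah stood at -1.87, -0.47 and -0.48. Ddo and Pipox stood at -0.62 and -0.44. Among the glycine and methyl-group genes the values were -0.69 for Amt, -0.63 for Sardh, -0.69 for Dmgdh and -0.81 for Shmt2. The creatine genes Gatm and Gamt had -0.63 and -0.66, and Asl had -0.61. Arg2, at 2.03, was the 1 gene with a value above 0. Prodh, Prodh2 and Aldh4a1 had -0.71, -0.71 and -0.72. The branched-chain and propionate genes had -0.62 for Bckdha, -0.61 for Bckdhb, -0.36 for Dbt, -0.68 for Ivd, -0.75 for Mccc1, -0.67 for Mccc2, -0.56 for Pcca, -0.52 for Pccb, -0.75 for Hibch and -0.41 for Hibadh. The tryptophan genes Kmo, Haao and Acmsd had -0.62, -1.28 and -1.09. Cth, Cbs and Agxt2 had -0.68, -0.81 and -1.01.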

How the results depend on the processing

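At 7 weeks the counts of lower and higher genes stayed within 1.5 times the reported 36 and 2 under each change of scaling, filter, weighting or model, except that centring each array on its median left 1 higher. Centring called 10892 of all genes, against 7167 as reported. At 4 weeks 0 of the 40 passed under each alternative, while all genes gave 9 calls as reported, 5 with array weights and 1 with the 4-week mice fitted alone. Leaving out 1 mouse at a time gave 35 to 36 lower and 1 to 2 higher at 7 weeks (median -0.76 to -0.63). At 4 weeks it gave 0 calls (median -0.10 to -0.04). For the difference between ages it gave 28 to 32 below 0 and 1 above (median -0.70 to -0.55). For age in KO kidney it gave 21 to 25 lower and 0 to 2 higher (median -0.38 to -0.28), and in WT kidney 13 to 15 higher and 3 to 4 lower (median 0.15 to 0.22). With the replicate number as a block, same-numbered mice of the groups share a term, and 36 were lower and 2 higher at 7 weeks. For the difference between ages 29 were then below 0 and 1 above, without Dbt (-0.36, adjusted p = 0.0666) and Sardh (-0.63, adjusted p = 0.0528). The cause of these shifts was not tested. After seeing the data 2 alternatives were added. Subtracting the mean of 10 proximal tubule markers at 7 weeks left 10 lower and 6 higher (median -0.11), and by construction it put above 0 Hgd (0.16), Fah (0.03), Dao (0.34), Pipox (0.12), Shmt1 (0.31), Ass1 (0.33), Asl (0.01), Dbt (0.06), Hibadh (0.15), Aadat (0.06) and Bhmt (0.24). Leaving out the 4-week KO arrays of lowest weight gave 0 genes higher with age in KO kidney (Arg2 0.49, adjusted p = 0.078), turned Ddo (0.02), Asl (-0.01) and Aadat (0.05) at 4 weeks, and turned Fah (0.02), Gldc (0.06) and Bckdha (0.04) with age in KO kidney. Other changes of sign were in genes that did not pass: Oat in the difference between ages when centred (-0.09); with age in KO kidney Dao centred (-0.06), Shmt1 centred (-0.04) and quantile-normalized (-0.06) and Fah quantile-normalized (0.03); and with age in WT kidney Ass1 centred (0.01) and Ddo (-0.01), Mccc2 (-0.03) and Hibadh (-0.01) quantile-normalized. Leaving out 1 mouse also turned signs near 0. At 4 weeks the ranges were -0.08 to 0.01 for Ddo, -0.01 to 0.04 for Gatm, -0.07 to 0.01 for Gamt, -0.03 to 0.13 for Ass1, -0.02 to 0.08 for Asl, -0.04 to 0.14 for Prodh2, -0.03 to 0.12 for Hibch, -0.15 to 0.23 for Kynu and -0.11 to 0.04 for Aadat. In the difference between ages Oat ran from -0.05 to 0.03. With age in KO kidney the ranges were -0.07 to 0.05 for Fah, -0.02 to 0.05 for Dao, -0.18 to 0.20 for Gldc, -0.12 to 0.05 for Sardh, -0.01 to 0.08 for Shmt1, -0.17 to 0.05 for Aldh4a1, -0.09 to 0.04 for Bckdha and -0.14 to 0.08 for Cbs, and in WT kidney Ass1 ran from -0.08 to 0.06. Dim signal limits Bhmt most, since it alone lay in the dimmest 25%.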
